A study of Mus musculus with 10 samples.

Results

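The 9 genes described here encode class I phosphoinositide 3-kinase (PI3-kinase) subunits, Pik3r3 left out, and 1 phosphatase that removes their product. They are the catalytic subunits Pik3ca, Pik3cb, Pik3cd and Pik3cg, the regulatory subunits Pik3r1, Pik3r2, Pik3r5 and Pik3r6, and Inpp5d. They were chosen by gene symbol from the 47311 genes of the deposited tables, after Pik3cb had been seen to be higher with every construct, so their differences between constructs and empty vector are a description, and any count of calls in that contrast is printed only beside the share of all genes called. All 9 passed the filter on low counts.

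PolyA RNA was measured in 10 libraries of mouse bone marrow cells, labelled as lineage-negative and Kit-positive, that carried mutant 1, mutant 2 or mutant 3 of ASXL2, full-length ASXL2, or an empty vector, with 2 libraries in each group. ASXL2 is a chromatin scaffold protein that works with the histone H2A deubiquitinase BAP1. In every group the GFP-positive cells were sorted and then expanded in IMDM medium with fetal bovine serum, IL3, IL6 and SCF, so the empty vector cells share the sorting, the cytokines and the culture. The sources used here name neither the vector and its promoter nor the mutations, and no label tells whether a group's 2 libraries are separate cultures. P-values then measure only how these libraries vary, which could be technical variation.

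Each label carries a batch (1 or 2), and so does each deposited name. The 2 disagree for mutant 1 replicate 2, whose name has batch 1, and for mutant 3 replicate 1, whose name has batch 2; 4 mutant libraries in all carry another mutant number in their name. Mutants are therefore pooled (n = 6) against full-length (n = 2) and empty vector (n = 2). Below, "batch" means the batch of the deposited name, 5 libraries each. Mutant numbers are those of the labels unless stated. With mutant numbers of the labels and batches of the names, both libraries of mutant 1 are in batch 1 and both of mutant 3 in batch 2. A difference between mutant 1 and mutant 3 of the labels therefore cannot be told apart from one between batches. With mutant numbers and batches both taken from the names, each mutant has 1 library in batch 1 and 1 in batch 2. Estimated counts per library lay between 52422686 and 79320702. Asxl2 itself was at 790 to 1891 CPM (counts scaled to a common library total with edgeR's TMM factors, which correct for composition) in the mutants and at 992 and 1384 CPM in the full-length libraries, against 107 and 111 CPM in the empty vector libraries. All 10 mast cell and basophil markers were at 8.12 TPM or more in every library (TPM is a transcript's share of all transcripts, scaled for length). Their summed level was 57657 to 64363 TPM in mutants and 57763 and 69920 TPM in full-length, against 63819 and 65550 TPM in empty vector libraries. Kit was at 729 to 1050 TPM, and neutrophil, lymphoid and monocyte and macrophage marker sums were at most 2.48, 2.11 and 15.8 TPM. Erythroid markers summed to 51.1 to 137 TPM in mutants and 71.5 and 131 TPM in full-length, against 44.9 and 84.7 TPM in empty vector libraries.

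Class I PI3-kinases phosphorylate a membrane phosphoinositide to make PIP3, which recruits kinases such as AKT and TEC through their pleckstrin homology domains. Class IA enzymes pair an alpha, beta or delta catalytic subunit with a regulatory subunit that docks on tyrosine-phosphorylated receptors such as Kit, whereas the class IB gamma subunit pairs with Pik3r5 or Pik3r6 products and answers G protein-coupled receptors. In mouse mast cells the delta enzyme carries much of the signal from Kit and the IgE receptor, the gamma enzyme amplifies degranulation through Pik3r6, and Inpp5d, which encodes SHIP1, limits these responses by removing a phosphate from PIP3.

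Promoter windows are shown for the gene that differed most with the constructs and for the class IA regulatory subunit Pik3r1, whose alternative starts were used to very different extents. Each window holds the 250 bases before a RefSeq start on GRCm38.p6, on the gene's strand, and capitals mark the GC box hexamer GGGCGG (its reverse complement CCGCCC was searched too). Windows were found for 8 of the 9 genes, all except Pik3r6.
Pik3cb, chr9:99140212-99140461, minus strand: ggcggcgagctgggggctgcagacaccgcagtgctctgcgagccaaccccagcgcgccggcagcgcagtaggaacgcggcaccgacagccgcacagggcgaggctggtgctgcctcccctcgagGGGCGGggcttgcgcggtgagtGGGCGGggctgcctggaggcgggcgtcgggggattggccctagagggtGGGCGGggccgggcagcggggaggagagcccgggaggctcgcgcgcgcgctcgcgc
Pik3r1 distal start, chr13:101768218-101768467, minus strand: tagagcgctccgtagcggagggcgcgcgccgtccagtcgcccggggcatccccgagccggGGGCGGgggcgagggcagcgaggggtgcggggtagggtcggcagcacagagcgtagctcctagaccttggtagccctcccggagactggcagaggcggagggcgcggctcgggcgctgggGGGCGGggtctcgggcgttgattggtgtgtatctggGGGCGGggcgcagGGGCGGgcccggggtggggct
Pik3r1 internal start, chr13:101692631-101692880, minus strand: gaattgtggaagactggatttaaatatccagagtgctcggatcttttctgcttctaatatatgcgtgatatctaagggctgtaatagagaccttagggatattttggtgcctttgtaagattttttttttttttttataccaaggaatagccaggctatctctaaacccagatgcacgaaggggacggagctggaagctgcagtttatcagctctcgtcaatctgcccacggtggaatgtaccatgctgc

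The Pik3cb window holds 3 GGGCGG hexamers and 32 CG dinucleotides, more CG than 95.4% of the 32851 mouse windows of this length, whose median is 6. The distal Pik3r1 window holds 4 hexamers and 30 CG dinucleotides, whereas the internal one holds 0 and 6. At least 1 such hexamer is in 32.7% of all windows, so its presence is common. Among the other members, the Pik3r5 window has 4, those of Pik3ca and Pik3r2 have 1 each, the 3 windows of Pik3cd have 1, 3 and 0, and those of Pik3cg and Inpp5d have 0. The GATA-type hexamer AGATAA (reverse TTATCT), present in 9.99% of windows, was in none of the windows found for these genes. The AP-1 heptamer TGACTCA (reverse TGAGTCA), present in 4.46%, was in that of Pik3ca only.

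The delta catalytic subunit dominated the family. Pik3cd, which encodes the leukocyte delta isoform, averaged 366 TPM over the 10 libraries (range 324 to 442) and ranked 303 of 17810 genes tested. Inpp5d followed at 287 TPM (240 to 344), above the gamma catalytic subunit Pik3cg at 62.3 TPM (52.6 to 79.3). Pik3cg-204, annotated by GENCODE as a nonsense-mediated decay transcript, made up 23.1 to 30.2% of Pik3cg TPM. The ubiquitous alpha subunit Pik3ca averaged 22.7 TPM (18.9 to 27.4), although a short retained-intron transcript, Pik3ca-204, made up 28.2 to 50.3% of that. Pik3cb, which encodes the beta isoform that can also be engaged by G protein-coupled receptors, averaged only 2.30 TPM (0.578 to 3.47) and ranked 11150.

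Among the regulatory subunits, Pik3r6 (16.8 TPM, 9.92 to 24.5), Pik3r2 (14.9 TPM, 12.4 to 17.9) and Pik3r1 (13.2 TPM, 11.0 to 14.6) lay close together, and Pik3r5 was far below at 0.339 TPM (0.0546 to 0.782). Each gene exceeded the next in the order Pik3cd, Inpp5d, Pik3cg, Pik3ca, Pik3r6 in 10 of 10 libraries, as did Pik3r1 over Pik3cb and Pik3cb over Pik3r5. Pik3r6 exceeded Pik3r2 in 6 of 10 and Pik3r2 exceeded Pik3r1 in 8 of 10, so those neighbours were not separated beyond their spread. The regulatory subunit of the gamma enzyme was almost all Pik3r6, at 96.7 to 99.6% of the summed class IB regulatory TPM. The class IA catalytic transcripts summed to 11.9 to 17.2 times the TPM of Pik3r1 plus Pik3r2.

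**Figure D1:**
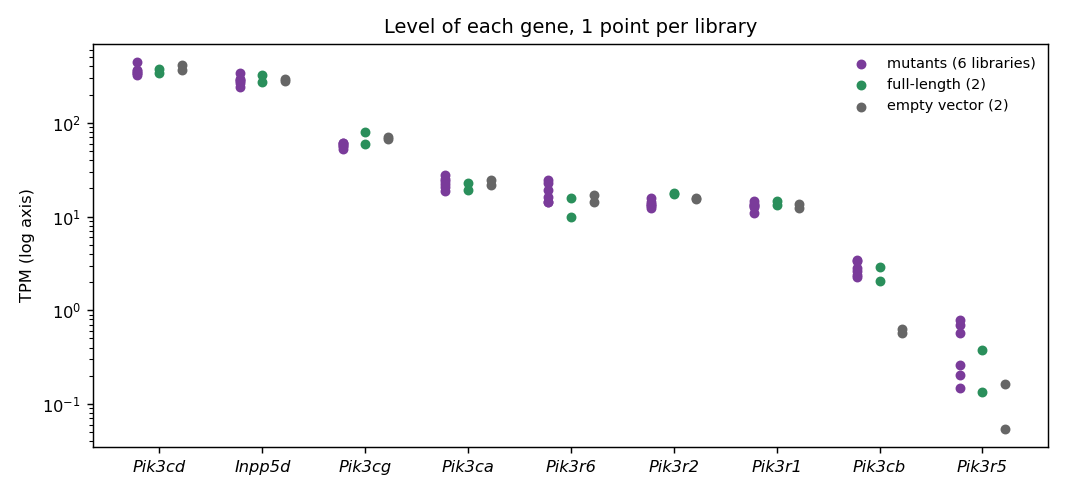
Level of each of the 9 genes in TPM on a log axis, with 1 point per library and the mutants, full-length and empty vector side by side. Pik3cd lies highest at 324 to 442 TPM, and of the 9 genes only Pik3cb has all 8 construct libraries above both empty vector libraries.

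Pik3cb (ENSMUSG00000032462, mm10 chr9:99036654-99140621, minus strand) was several-fold higher with every construct. It measured 10.6 and 10.4 CPM in mutant 1, 14.2 and 11.6 CPM in mutant 2, 10.9 and 14.8 CPM in mutant 3, and 8.83 and 11.7 CPM in full-length libraries, against 2.54 and 2.48 CPM in empty vector libraries. By the mutant numbers of the names, mutant 1 had 10.6 and 11.6, mutant 2 10.4 and 10.9, and mutant 3 14.2 and 14.8 CPM. The lowest construct library was above the highest empty vector library, and the 2 empty vector libraries were close to each other. Pik3cb averaged 12.1 ± 1.91 CPM in mutants (SD, n = 6) and 10.3 ± 2.05 CPM in full-length (SD, n = 2), against 2.51 ± 0.0431 CPM in empty vector libraries (SD, n = 2), or 4.82 and 4.09 times the empty vector mean. The fitted log2 fold changes over empty vector were 2.27 (SE 0.20) for the mutants and 2.03 (SE 0.22) for full-length.

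None of the other 8 genes kept all construct libraries on one side of both empty vector libraries. Over all 17810 genes, 6.91% had all 8 construct libraries above both empty vector libraries and 4.05% had all below. By edgeR's quasi-likelihood test at a Benjamini-Hochberg adjusted p under 0.05, 1 of 9 members was called in the mutants, where 1.75% of all genes were called, and 1 of 9 in full-length, where 0.752% were; it was Pik3cb in both. Since this contrast chose the genes, nothing is read from these counts.

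**Figure D2:**
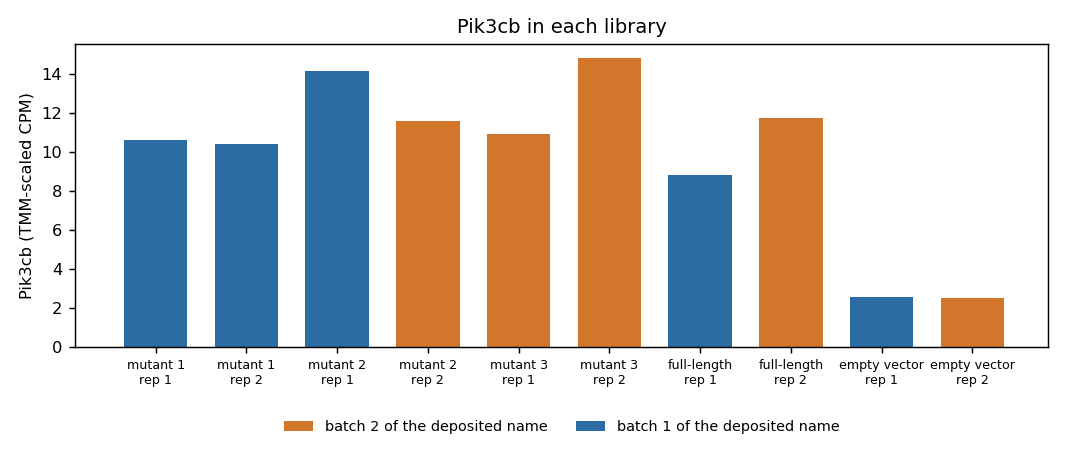
Pik3cb in TMM-scaled CPM in each library, as bars from 0, coloured by the batch of the deposited name. The 8 construct libraries lie between 8.83 and 14.8 CPM and the 2 empty vector libraries at 2.54 and 2.48 CPM, in both batches.

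Among the construct libraries Pik3cb and Asxl2 were not in the same order. The highest Pik3cb value, 14.8 CPM, was in mutant 3 replicate 2, which had the lowest construct level of Asxl2 at 790 CPM. Mutant 1 replicate 2, of the other batch, had the highest Asxl2, 1891 CPM, and 10.4 CPM of Pik3cb. With a construct, Asxl2 was at 1132 to 1891 CPM in batch 1 and at 790 to 992 CPM in batch 2. In each batch the construct library lowest in Asxl2 was the highest in Pik3cb. For batch 1 this was mutant 2 replicate 1, at 1132 CPM of Asxl2 and 14.2 CPM of Pik3cb. By the names both of these libraries are mutant 3, so the level of Asxl2 and the mutant cannot be told apart here. The lowest Pik3cb of batch 1, 8.83 CPM, was in full-length replicate 1, whose Asxl2 of 1384 CPM was not the highest. Even so, the share of Pik3cb in the summed TPM of the 4 catalytic subunits stayed small, at 0.634 ± 0.113% in mutants (SD, n = 6) and 0.548 ± 0.0933% in full-length (SD, n = 2), against 0.126 ± 0.000227% in empty vector libraries (SD, n = 2). Pik3cd held 78.7 to 82.8% of that sum in every library.

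Both expressed Pik3cb transcripts were higher with the constructs. Pik3cb-203 (5045 nt), annotated by GENCODE as a nonsense-mediated decay transcript, measured 1.49 to 2.38 TPM in mutants and 1.27 and 2.20 TPM in full-length, against 0.347 and 0.437 TPM in empty vector libraries. Pik3cb-201 (6478 nt), which encodes the kinase, measured 0.623 to 1.14 TPM in mutants and 0.763 and 0.712 TPM in full-length, against 0.291 and 0.141 TPM in empty vector libraries. Neither transcript overlapped between construct and empty vector libraries. Pik3cb-203 made up 68.6 ± 4.70% of Pik3cb TPM in mutants (SD, n = 6) and 69.0 ± 9.25% in full-length (SD, n = 2), against 65.0 ± 15.0% in empty vector libraries (SD, n = 2), ranges that overlap. The split rests on kallisto's assignment of reads that both transcripts share, and in empty vector libraries on 50.0 to 120 estimated counts per transcript. The remaining transcript, of 631 nt, was listed at 0 in all 10 libraries.

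**Figure D3:**
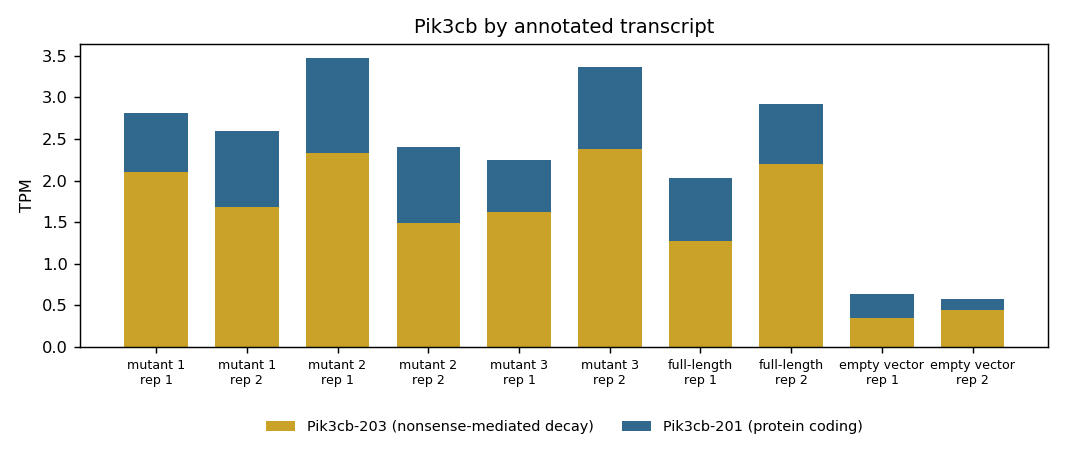
TPM of the expressed Pik3cb transcripts in each library, by mutants, full-length and empty vector. Pik3cb-203 spans 1.27 to 2.38 TPM with a construct and 0.347 to 0.437 TPM with empty vector, and Pik3cb-201 spans 0.623 to 1.14 and 0.141 to 0.291 TPM.

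Of the other catalytic subunits, Pik3cd and Pik3ca lay within a narrow band. Pik3cd measured 1081 to 1334 CPM in mutants and 1145 and 1189 CPM in full-length, against 1265 and 1228 CPM in empty vector libraries. Pik3ca measured 68.3 to 77.0 CPM in mutants and 76.6 and 70.5 CPM in full-length, against 75.3 and 71.8 CPM in empty vector libraries. For these and Pik3cg the 8 construct libraries overlapped the empty vector libraries, although for Pik3cd both full-length libraries were below both empty vector libraries. The fitted log2 fold changes of Pik3cd, Pik3ca and Pik3cg over empty vector lay between -0.17 and 0.02. Pik3cg measured 204 to 273 CPM in mutants and 234 and 305 CPM in full-length, against 244 and 287 CPM in empty vector libraries. Every mutant library was below the empty vector library of its batch for Pik3cg, at -0.257 to -0.071 log2. The full-length libraries were at -0.058 and 0.090 log2. The share of all genes with such a pattern was not computed. Inpp5d was at 851 to 958 CPM in mutants and 900.0 and 970 CPM in full-length, against 806 and 878 CPM in empty vector libraries, with log2 fold changes of 0.10 and 0.15.

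Of the class IA regulatory subunits, Pik3r1 measured 67.5 to 78.2 CPM in mutants and 72.4 and 76.4 CPM in full-length, against 64.8 and 69.6 CPM in empty vector libraries. Its main transcript, from the distal start, made up 95.5 to 98.9% of its TPM. The transcript from the internal start whose window is shown above, was listed at 0 in 9 of 10 libraries. Pik3r2 measured 22.1 to 35.6 CPM in mutants and 33.4 and 36.1 CPM in full-length, against 29.0 and 32.1 CPM in empty vector libraries. For both genes the mutants overlapped the empty vector libraries, while both full-length libraries lay above both empty vector libraries. The same was true of Inpp5d. The share of all genes in which the full-length libraries separate from the empty vector libraries was not computed. Nothing is read from this separation, nor from that of Pik3cd in the other direction.

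Pik3r5, the class IB regulatory subunit that is scarce in these cells, was the other gene with a large ratio to empty vector, though at very low levels. It measured 2.08 and 1.71 CPM in mutant 1, 2.46 and 0.702 CPM in mutant 2, 0.576 and 0.807 CPM in mutant 3, and 1.28 and 0.432 CPM in full-length libraries, against 0.489 and 0.190 CPM in empty vector libraries. One construct library, full-length replicate 2, fell below empty vector replicate 1, so the groups overlapped. Inside each batch they did not. In batch 2 the construct libraries lay 1.19 to 2.09 log2 units above their empty vector library, and in batch 1 they lay 1.39 to 2.33 log2 units above theirs. Inpp5d did not overlap inside either batch, at 0.044 to 0.143 log2 units above in batch 2 and 0.078 to 0.249 in batch 1. The share of all genes that separate from the empty vector inside both batches was not computed, so nothing is read from it. With the batch of the names as a block, 2 of 9 members were called against empty vector, Pik3cb and Pik3r5, in the mutants (10.8% of all genes) and in full-length (5.07%); as this contrast chose the genes, nothing is read from that count.

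The same within-batch comparison for Pik3cb gave 2.14 to 2.58 log2 units in batch 2 (median 2.23) and 1.80 to 2.48 in batch 1 (median 2.05). The batch difference in this contrast was 0.19 log2 (SE 0.36, adjusted p = 0.950 by edgeR), with a construct by batch term over all 10 libraries. For that term edgeR called 0 of 17810 genes (0%), while 1329 had an unadjusted p under 0.05 and DESeq2 called 110. Each batch has 1 empty vector library, so this term has low precision.

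**Figure D4:**
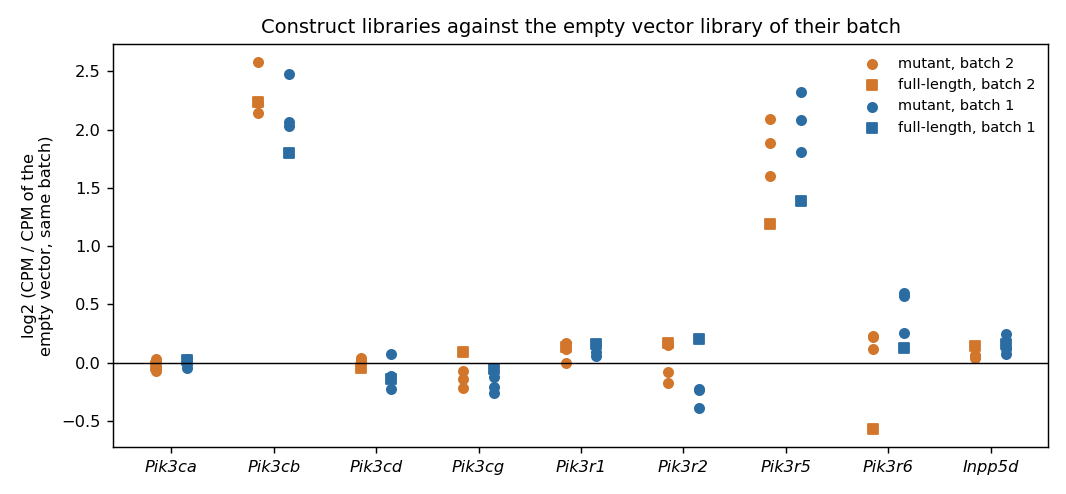
Log2 ratio of each construct library to the empty vector library of the same batch for each of the 9 genes, batch 2 left of batch 1. Pik3cb lies at 1.80 to 2.58 and Pik3r5 at 1.19 to 2.33 in both batches, while Pik3r6 spans -0.57 to 0.60.

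No member passed the test between mutants and full-length. Pik3cb was 0.24 log2 higher in mutants than in full-length (SE 0.17, unadjusted p = 0.203, adjusted p = 1 by edgeR), and 0 of 9 members passed. Over all genes edgeR called 0 of 17810 (0%), although 720 had an unadjusted p under 0.05 and DESeq2 called 76. Pik3r6, the adaptor of the gamma enzyme, had the smallest unadjusted p of the 9, 0.0225 by edgeR, with an adjusted p of 1. It measured 51.0 and 40.2 CPM in mutant 1, 50.2 and 36.1 CPM in mutant 2 and 39.0 and 38.8 CPM in mutant 3, against 36.7 and 22.5 CPM in full-length libraries. Mutants and full-length overlapped, since mutant 2 replicate 2 was below full-length replicate 1, and the fitted difference was 0.52 log2 (SE 0.19). Inside each batch they did not overlap, with full-length lowest in both.

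The same held inside both batches for 4 of the 9 genes, beside 21.1% of all genes. Pik3r6 and Pik3r5 were higher in all mutants than in the full-length library of their batch, and Pik3cg and Pik3r2 were lower. In batch 2 Pik3cg was at 247 to 273 CPM in mutants and 305 CPM in full-length, and in batch 1 it was at 204 to 224 CPM in mutants and 234 CPM in full-length. With the batch of the names as a block, the differences were 0.54 log2 for Pik3r6 (SE 0.13, unadjusted p = 0.00244, adjusted p = 0.138 by edgeR), 0.69 log2 for Pik3r5 (SE 0.21, 0.00786 and 0.223), -0.35 log2 for Pik3r2 (SE 0.094, 0.00407 and 0.166) and -0.18 log2 for Pik3cg (SE 0.053, 0.00541 and 0.189). None of the 4 passed after adjustment over all genes.

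Several of these genes differed between the batches of the deposited names. In a fit with class and batch, 5 of 9 members were called, 2 higher and 3 lower in batch 2, while 52.4% of all genes were called, 26.6% higher and 25.9% lower, so the count is near the background. Pik3r5 fell by 1.55 log2 in batch 2 (SE 0.17, adjusted p = 4.11e-05 by edgeR), at 0.190 to 0.807 CPM in batch 2, against 0.489 to 2.46 CPM in batch 1. Pik3r6 was also lower, by -0.33 log2 (SE 0.10, adjusted p = 0.0188), at 22.5 to 39.0 CPM in batch 2, against 33.7 to 51.0 CPM in batch 1. The adjacent genes Pik3r5 (chr11:68432121-68497849) and Pik3r6 (chr11:68503019-68552698) both fell in batch 2.

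Pik3cg rose by 0.30 log2 in batch 2 (SE 0.042, adjusted p = 0.000195 by edgeR), at 247 to 305 CPM in batch 2, against 204 to 244 CPM in batch 1. It was the only member whose batches did not overlap, as 15.3% of all genes did in that direction. Pik3r2 rose by 0.29 log2 (SE 0.075, adjusted p = 0.00801), at 28.4 to 36.1 CPM in batch 2, against 22.1 to 33.4 CPM in batch 1. Pik3ca fell by 0.09 log2 (SE 0.034, adjusted p = 0.0431), at 68.3 to 73.4 CPM in batch 2, against 72.8 to 77.0 CPM in batch 1. Pik3cb did not pass (0.14 log2, SE 0.12, adjusted p = 0.364), nor did Pik3cd, Pik3r1 and Inpp5d, at 0.04 to 0.09 log2. Itga2b, which gave nearly all of the megakaryocyte marker sum, moved with the batch too. That sum was 935 to 1132 TPM in batch 2, against 1285 to 1633 TPM in batch 1. The lymphoid sum was 0.253 to 0.532 TPM in batch 2, against 0.750 to 2.11 TPM in batch 1. The monocyte and macrophage sum was 5.27 to 15.8 TPM in batch 2, against 3.11 to 5.46 TPM in batch 1, and the erythroid sum was 84.7 to 137 TPM in batch 2, against 44.9 to 100.3 TPM in batch 1. The part of these cell types in the batch differences was not tested, and in bulk RNA fewer cells of a type and less RNA per cell cannot be told apart.

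The batch calls depend on the scale. On log2(TPM + 0.1) with limma, the median gene was lower in batch 2 by -0.20 log2, and 15.8% of the calls on log2(TPM + 1) were higher in batch 2, against 50.7% of calls in edgeR on counts. On both TPM scales Pik3cg and Pik3r2 lost their calls, and Pik3r5, Pik3r6 and Pik3ca were called lower. The Pik3r6 call was also lost with no filter (adjusted p = 0.0645 by edgeR) and without mutant 1 replicate 1, mutant 2 replicate 1 or either full-length library, and the Pik3ca call without any 1 library other than mutant 3 replicate 2. The Pik3ca call was lost on counts as well with DESeq2 (adjusted p = 0.0861), with RLE factors (0.0775), with no filter (0.268) and on length-scaled counts (0.368). With the labelled batch in place of that of the names, all 5 calls were lost. By edgeR, Pik3r1 passed with no filter (adjusted p = 0.0430) and on length-scaled counts (0.0401). It also passed without mutant 1 replicate 1 (0.0416) or mutant 3 replicate 1 (0.0101). Inpp5d passed without mutant 1 replicate 1 (adjusted p = 0.0285 by edgeR). Both were higher in batch 2 there and lower on the TPM scales.

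**Figure D5:**
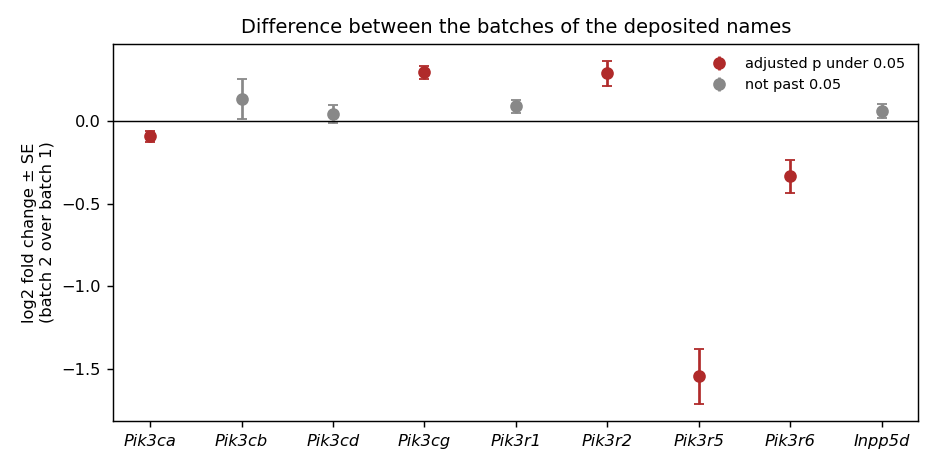
Fitted log2 difference between batch 2 and batch 1 of the deposited names for each gene, with SE bars and class in the fit; red marks an adjusted p under 0.05. Pik3r5 stands at -1.55, Pik3cg and Pik3r2 at 0.30 and 0.29, and Pik3cb at 0.14 is not past the threshold.

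The wider pathway was described with 5 lists of 89 genes, of which 85 were tested: other PI3-kinase subunits, phosphoinositide phosphatases, the AKT and mTOR arm, adaptors and upstream kinases, and PIP3-binding effectors. In the mutants 2 of 85 rose and 0 fell, and in full-length likewise 2 rose and 0 fell, which is 2.35% in each case beside 1.75% and 0.752% of all genes. They were Inppl1, the SHIP2 phosphatase related to Inpp5d, and Sgk3, an AKT-related kinase that binds endosomal phosphoinositides. With the replicate number of the labels as a block, 3 of 85 were called in each comparison, beside 1.88% of all genes in the mutants and 0.724% in full-length. With the batch of the names as a block, 18 were called in the mutants (16 higher and 2 lower, 21.2% beside 10.8% of all genes) and 7 in full-length (all higher, 8.24% beside 5.07%). Without the 2 libraries whose names carry another batch, 1 was called in the mutants and 0 in full-length.

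Inppl1 measured 70.7 to 86.3 CPM in mutants and 83.6 and 78.9 CPM in full-length, against 54.3 and 56.8 CPM in empty vector libraries. The difference was 0.50 log2 in mutants (SE 0.086, adjusted p = 0.0213 by edgeR) and 0.55 log2 in full-length (SE 0.10, adjusted p = 0.0477). Sgk3 measured 4.05 to 4.85 CPM in mutants and 3.62 and 3.78 CPM in full-length, against 1.77 and 1.69 CPM in empty vector libraries. The difference was 1.33 log2 in mutants (SE 0.15, adjusted p = 0.00353 by edgeR) and 1.10 log2 in full-length (SE 0.17, adjusted p = 0.0273). For both genes the 8 construct libraries lay above both empty vector libraries. All of these calls were lost without either empty vector library, with adjusted p between 0.0661 and 0.349, and on the TPM scales. The full-length calls were also lost without either full-length library, with only the libraries compared in the fit, and without several of the mutant libraries. On length-scaled counts both were lost (adjusted p = 0.0603 for Inppl1 and 0.0564 for Sgk3 by edgeR). With no filter that of Inppl1 was lost (0.0574 by edgeR). Without both libraries whose names carry another batch, the mutant call of Inppl1 was lost too (0.0770 by edgeR).

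The remaining lists had 0 calls in these comparisons without a block. In the mutants, the block by names called 2 of 6 other subunits, 4 of 18 adaptors and upstream kinases and 4 of 19 effectors, all higher; in full-length it called 0, 1 and 1. Of the 6 other PI3-kinase subunits tested, 5 had a log2 fold change over empty vector above 0 in mutants and 5 in full-length. Among the 6, Pik3c2b was at 0.175 to 0.207 CPM and Pik3r3 at 1.01 to 1.26 CPM in empty vector libraries. The median log2 fold change of the 6 was 0.44 in mutants and 0.24 in full-length, beside -0.0018 and -0.014 over all genes. For the 15 phosphatases it was 0.056 and 0.077, for the 27 AKT and mTOR genes -0.019 and 0.021, for the adaptors and upstream kinases 0.0018 and 0.11, and for the effectors 0.16 and 0.11. Between mutants and full-length, edgeR called 0 of 85, and 1 with the block by names.

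The genes whose log2 CPM was most like that of Pik3cb over the 10 libraries, among 9624 named genes of at least 5 CPM, were Slc41a1 (correlation 0.98), a magnesium transporter, Lgalsl (0.98), Adcy6 (0.98), an adenylyl cyclase, Tpd52 (0.98), and Siae (0.98), a sialate esterase. These values rest largely on the gap between construct and empty vector libraries. Over the 8 construct libraries alone they were 0.76, 0.77, 0.63, 0.67 and 0.64. Slc41a1 was at 13.8 to 19.0 CPM with a construct and 6.31 and 6.89 CPM with empty vector. The other 8 members correlated with Pik3cb at -0.27 to 0.63 over the same 10 libraries, with Pik3r5 highest.

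The nearest coding neighbours of Pik3cb, named after their values were seen, gave almost no signal. Gm1123, whose end lies 939 bases from Pik3cb on the same strand, was at 0 to 0.0538 CPM with a construct and 0 to 0.0188 CPM with empty vector. Faiml was at 0 in all 10 libraries.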

How the data were processed

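Per the submitters' processing notes, kallisto and DESeq2 were used with mm10; versions, index and filters are not stated. The deposited tables of 115088 transcripts hold estimated counts, TPM and effective lengths, per the file headers. Transcripts were summed per gene through GENCODE M21 (GRCm38): 114200 (99.2%) matched, with 99.3 to 99.6% of counts; the rest were left out. The 9 genes, the lists, tests and alternatives were chosen with earlier results of these data known. Summed counts were rounded and tested in edgeR 4.0.16 (R 4.3.3; robust quasi-likelihood, TMM, default filter of 10 counts, 17810 genes, 3 classes in 1 fit), with Benjamini-Hochberg adjustment over all genes. DESeq2 1.42.0 and limma 3.58.1 on log2(TPM + 1) and log2(TPM + 0.1), whose pseudocounts understate changes of low genes, were alternatives, as were RLE scaling, 2 other filters, length-scaled counts, blocks, and each library left out. Leaving out both libraries whose names carry another batch was chosen after seeing the data. Log2 CPM for correlations used a prior count of 2. Promoter windows came from RefSeq.

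The strand setting is unknown here, so reads of a gene and of its antisense partner may mix, and kallisto shares reads between similar transcripts. Pathway genes are named as up to 4 called genes per list with the smallest p, and genes like Pik3cb as the 5 highest correlations. The replicate number is labelled a batch, from which the pairing comes. Deviations from group means of same-numbered libraries correlated at 0.491, 0.525 and 0.578 in 3 of 10 pairs of groups. These were the pairs among empty vector, mutant 2 and full-length, whose 2 libraries lie in different batches by name. The other 7 pairs, at -0.145 to 0.0169, include mutant 1 or mutant 3, whose 2 libraries share a batch by name. The main construct fits have no block. The fits were checked on simulated counts. Figures used Python 3.11.15 and matplotlib 3.10.9.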

Additional observations from a re-analysis of the deposited data

Results flagged for a closer look

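Mutant 1 replicate 1 stood apart from the libraries beside it in the TPM of both most abundant genes. Pik3cd was at 441.83 TPM there, above the other 5 mutant libraries by 0.682 of the whole range. Inpp5d was at 343.589 TPM in the same library, above the other 4 libraries of batch 1 by 0.766 of their range. In CPM that library was also the highest for both genes, at 1334 and 958 CPM among the mutants, but by gaps within the limits of the same test. There were 54 such tests, and chance flags about 1 in 20.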

How the results depend on the processing

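Of the counts of genes called, that of the mutants against empty vector (311) became 1925 with the replicate block by the batch of the names, 913 with DESeq2, 69 and 94 with limma on log2(TPM + 1) and log2(TPM + 0.1), 162 without both libraries whose names carry another batch, and 17 to 271 with 1 library left out. That of full-length against empty vector (134) became 903, 560, 14, 23 and 37 under the same settings, 87 on length-scaled counts, 0 with only the libraries compared in the fit (921 at an unadjusted p under 0.05) and 0 to 86 with 1 library left out. Mutants against full-length (0) gave 1 with the labelled replicate block, 71 with the block by names, 76 with DESeq2 and 0 to 1 with 1 library left out. The batch count (9338) was 0 with the labelled batch (1555 at an unadjusted p under 0.05), and the construct by batch count (0) was 110 with DESeq2 and 2 with no filter. The labelled replicate block changed the other counts by less than 1.5 times, to 335 and 129, and no call of a member. Without both libraries whose names carry another batch, 1 of 9 members was called against empty vector in the mutants and in full-length, and 5 of 9 between batches, where Pik3ca lost its call (adjusted p = 0.181) and Pik3r1 gained one (0.0254).

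By estimated counts in place of TPM, Pik3cb held 0.787% of the catalytic subunits in mutants, 0.673% in full-length and 0.158% in empty vector libraries, and Pik3cb-203 made up 62.9% of Pik3cb in mutants. The call of Pik3cb in full-length was lost with only the libraries compared, with limma on log2(TPM + 1), and without either empty vector library or full-length replicate 2.

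The sign turned for differences that had not passed. For mutants against full-length these were Pik3ca (0.16 length-scaled, 0.12 and 0.13 with limma) and, with 1 library left out, Pik3ca (-0.066 to 0.027), Pik3cg (-0.38 to 0.026), Pik3r1 (-0.10 to 0.0028) and Inpp5d (-0.12 to 0.014); the sign turned without full-length replicate 1 for Pik3ca and without full-length replicate 2 for the other 3. For the batch they were Pik3cb (-0.0067 and -0.018 with limma), Pik3cd (-0.10 and -0.10 with limma, -0.039 by labelled batch, -0.014 at 1 CPM in 4 libraries), Pik3r1 (-0.079 and -0.085 with limma) and Inpp5d (-0.096 and -0.096 with limma). For the construct by batch term they were Pik3ca (-0.046 to 0.0027 with 1 library left out) and Pik3r1 (0.036 and 0.038 with limma, 0.033 without both libraries, -0.035 to 0.044 with 1 left out), both positive without mutant 3 replicate 1 or full-length replicate 1. The cause was not tested. Low counts limit Pik3r5, with 0.190 CPM in 1 empty vector library.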

Other observations

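The pathway genes outside the 9 differed between the batches of the deposited names about as often as all genes did: 50 of 85 (29 higher and 21 lower in batch 2), which is 58.8% beside 52.4% of all genes, and 45 of 84 without both libraries whose names carry another batch. In each list, the gene with the smallest p by edgeR is named here. Adap1, which encodes a PIP3-binding GTPase-activating protein for Arf, rose by 0.95 log2 in batch 2 (SE 0.058, adjusted p = 2.89e-06). Fyn, the Src-family kinase upstream of PI3-kinase in mast cells, rose by 0.51 log2 (adjusted p = 6.48e-06), and Rheb, the GTPase that activates mTOR, rose by 0.50 log2 (adjusted p = 1.15e-05). Mtmr2, a phosphatase of the myotubularin family, rose by 0.36 log2 (adjusted p = 5.49e-05), a call lost with limma on log2(TPM + 1) and log2(TPM + 0.1) (0.19 and 0.20 log2, adjusted p = 0.0501 and 0.0506). Pik3ip1, which encodes a transmembrane inhibitor of PI3-kinase, fell by 0.77 log2 (adjusted p = 0.000744). With the labelled batch none of these 5 passed, with adjusted p of 0.472 to 0.473 by edgeR.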
